A study of Mus musculus with 6 samples.

Results

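The 9 genes described here flank Prrc2a on mouse chromosome 17, in the class III part of the major histocompatibility complex (MHC). Bag6, Apom, Csnk2b, Gpank1, Abhd16a and Ly6g6c lie on the side of lower coordinates, and Nfkbil1, Atp6v1g2 and Ddx39b lie on the side of higher coordinates. They were listed by position and make up 9 of the 37315 gene identifiers in the count files. They are not all genes of the interval, since detected genes nearer to Prrc2a than some members, such as Aif1 and D17H6S53E, are left out. Earlier results of these data were known when the list was made. Prrc2a, which encodes a reader of the RNA mark N6-methyladenosine (m6A), carries the floxed allele in 4 of the 6 libraries, which raises the question whether a change at Prrc2a extends to the genes beside it. The comparison asked of these genes is how their levels in the Nestin-Cre library stand beside those of genes with the same share of G and C bases (GC content).

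The libraries were poly(A) RNA-seq of hippocampus from C57BL/6J mice 4 weeks of age, with 1 library for each of 6 groups in 3 experiments. The Nestin-Cre pair set Prrc2a f/f mice (both alleles floxed) with Nestin-Cre against Prrc2a f/f mice without it, the Olig2-Cre pair did the same with Olig2-Cre, and the Fto pair set mice with an Fto transgene (Fto Tg) against wild-type (WT) mice with neither a floxed Prrc2a allele nor Cre in their labels. Nestin-Cre acts in neural progenitors and so in neurons and most glia that descend from them, but not in microglia. Olig2-Cre acts in the oligodendroglial lineage and in some other descendants of Olig2-expressing progenitors, and its Cre is carried by the Olig2 gene itself, so these mice also have 1 altered Olig2 allele. The Fto transgene was delivered by lentivirus under the ubiquitin C promoter and encodes an enzyme that removes m6A. The f/f controls carried no Cre, so Cre and the deletion cannot be told apart within a pair. The labels do not say whether RNA of several mice was pooled, and with 1 library a group no difference within a pair could be set against variation between mice. The controls of the Nestin-Cre and Olig2-Cre pairs are called Nestin f/f and Olig2 f/f below. All intervals below are 95% intervals for counting error only.

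MHC class III is among the most gene-dense stretches of mammalian genomes, and many of its genes have no role in antigen presentation. Bag6 encodes a chaperone that shields hydrophobic segments of newly made proteins and hands tail-anchored proteins to the insertion pathway, Csnk2b the regulatory subunit of casein kinase 2, Abhd16a a lipase that makes lysophosphatidylserine in brain, and Ddx39b an RNA helicase of spliceosome assembly and mRNA export. Atp6v1g2 encodes the neuronal G subunit of the V1 sector of the proton pump that acidifies vesicles, Nfkbil1 an ankyrin-repeat protein, Gpank1 a protein with a G-patch domain and ankyrin repeats, Apom an apolipoprotein made mainly in liver and kidney, and Ly6g6c a small protein of the Ly6 family.

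On GRCm38 (mm10) the interval ran from chr17:35065388, the start of Ly6g6c, to 35253707, the end of Ddx39b, a length of 188 kb. Bag6 and Prrc2a lay end to end with 1753 bases between them. In 2 places members overlapped on opposite strands. The bodies of Csnk2b and Gpank1 shared 599 bases, and those of Nfkbil1 and Atp6v1g2 shared 2133 bases. The authors counted without strand and in union mode, so reads inside such shared exons were counted for neither gene. The starts of both pairs are shown because the genes of a pair have annotated starts close together, for Csnk2b and Gpank1 in GENCODE M21 and for Nfkbil1 and Atp6v1g2 in RefSeq, so that each can be compared with its immediate partner. Both sequences are promoter windows of RefSeq (GRCm38.p6), 250 bases before to 50 after a start, read 5′ to 3′ on the strand of the gene named. In the Csnk2b window (chr17:35121380-35121679, minus strand) the capitals mark the 27 bases from a start of Csnk2b at 35121429 to the outermost GENCODE M21 start of Gpank1 at 35121455. RefSeq lists other starts of Csnk2b at 35121292 and 35122053. RefSeq starts Gpank1 further on, at 35122952, outside the printed window. In the Atp6v1g2 window (chr17:35236346-35236645, plus strand) the capitals mark the 116 bases from a RefSeq start of Nfkbil1 at 35236481 to one of Atp6v1g2 at 35236596. RefSeq lists another start for each gene, at 35235786 for Nfkbil1 and 35235010 for Atp6v1g2.
Csnk2b: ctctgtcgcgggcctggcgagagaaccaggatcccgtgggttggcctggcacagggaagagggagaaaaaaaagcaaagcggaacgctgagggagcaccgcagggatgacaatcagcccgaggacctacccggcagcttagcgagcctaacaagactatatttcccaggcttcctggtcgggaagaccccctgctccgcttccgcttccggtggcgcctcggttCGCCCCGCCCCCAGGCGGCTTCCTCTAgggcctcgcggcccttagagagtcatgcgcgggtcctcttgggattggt
Atp6v1g2: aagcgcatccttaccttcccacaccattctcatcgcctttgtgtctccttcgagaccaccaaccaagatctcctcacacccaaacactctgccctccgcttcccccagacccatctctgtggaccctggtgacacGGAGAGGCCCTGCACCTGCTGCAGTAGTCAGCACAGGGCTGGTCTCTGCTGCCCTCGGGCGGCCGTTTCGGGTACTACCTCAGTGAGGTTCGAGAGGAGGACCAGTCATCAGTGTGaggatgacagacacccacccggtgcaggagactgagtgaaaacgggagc
RefSeq windows were found for all 9 members and Prrc2a, 14 windows in all. Their GC content ran from 47.0% to 64.0% and their CpG count from 2 in Ly6g6c to 31 in Ddx39b, beside medians of 52.7% and 7 over 32851 windows of the same length. The GC-box letters GGGCGG, searched on both strands, occurred in 1 or more windows of Csnk2b, Abhd16a, Bag6, Prrc2a, Nfkbil1 and Atp6v1g2 and in 35.7% of all windows. TATAAA occurred in the Ly6g6c window and in 13.6% of all windows.

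Total counts per library ranged from 18616540 to 35482589. All markers of neurons, hippocampal neurons, oligodendrocytes, astrocytes and microglia were above 1 CPM (counts scaled by the library total) in each library. The Nestin-Cre library stood apart from the other 5. Mitochondrial genes took 26.2% of its counts against 7.97% to 8.86% elsewhere, and the mean GC content of its counts was 45.7% against 48.5% to 49.2%. Summed CPM of 4 choroid plexus markers was 264 in it and ranged from 689 to 3396 in the other 5, that of 7 oligodendrocyte markers was 6524 against 6715 to 11266, that of 6 microglia markers was 176 against 236 to 295, and that of 5 neuron markers was 5030 against 3466 to 3779. The part of these differences in the values below was not tested. For GC content the members are set beside genes of like GC content below, which is a description and not a test. In bulk tissue, fewer cells of a type and less RNA per cell cannot be told apart.

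Over the 3 control libraries (both f/f libraries and WT), the members differed widely in level. Levels per kilobase of exon are given as RPKM with the SD over these 3 controls. Atp6v1g2 was the highest at 133 ± 5.69 RPKM (SD, n = 3). Ddx39b followed at 38.2 ± 1.28, then Csnk2b at 30.6 ± 2.10 and Bag6 at 30.4 ± 2.88. The ranges of Csnk2b (28.5 to 32.7) and Bag6 (28.7 to 33.7) overlapped, so their order is not fixed. Abhd16a was at 18.2 ± 0.481, Gpank1 at 3.92 ± 0.0136, Nfkbil1 at 2.50 ± 0.407 and Apom at 0.252 ± 0.0417 RPKM, with no overlap between neighbours in this order. Prrc2a itself, at 51.3 ± 5.40 RPKM, was above every member but Atp6v1g2. Apom had 4 to 10 counts per library. Ly6g6c had 2 counts in the Olig2 f/f library, 1 in the Olig2-Cre library and 0 in the other 4, where 3 counts would be 0.0845 to 0.119 CPM. It passed no count minimum and gave no ratio. The other 8 had at least 10 counts over each pair, and 7 had at least 100.

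Bag6, whose end is nearest to that of Prrc2a, had 210 CPM in the Nestin f/f library, 65.5 in the Nestin-Cre library, 179 in the Olig2 f/f library, 197 in the Olig2-Cre library, 178 in WT and 204 in Fto Tg. The Nestin-Cre library was far below the other 5, which lay within 178 to 210. Abhd16a, the lysophosphatidylserine-producing lipase, had 59.7, 18.4, 56.7, 66.4, 58.9 and 66.3 CPM in the same order of libraries. Gpank1, the G-patch protein, had 7.38, 2.53, 7.34, 9.13, 7.38 and 8.46 CPM. All 3 of these genes, which lie on the Bag6 side, had a Nestin-Cre level below every other library and an Olig2-Cre level within or above the controls. The pattern was not particular to them or to that side, since Csnk2b, Ddx39b and Nfkbil1, given next, had it too.

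Csnk2b, which starts beside Gpank1, had 67.5, 49.2, 63.5, 75.1, 58.8 and 67.4 CPM. Its lowest value was again in the Nestin-Cre library, but the fold between that value and the lowest control was small beside that of Gpank1. Ddx39b, the helicase at the far end of the interval, had 150, 94.0, 140, 152, 144 and 162 CPM. Nfkbil1, the ankyrin-repeat gene, had 5.07, 2.50, 3.65, 3.97, 4.37 and 4.61 CPM, the lowest again in the Nestin-Cre library. Atp6v1g2, the neuronal proton-pump subunit whose start lies opposite that of Nfkbil1, had 351, 431, 323, 384, 331 and 381 CPM. It was the one detected member with its highest value in the Nestin-Cre library. Apom had 0.282, 0.259, 0.207, 0.215, 0.278 and 0.229 CPM, which overlapped between libraries within counting error. Prrc2a had 434, 184, 389, 346, 351 and 334 CPM and was thus lower in both Cre libraries than in either f/f library.

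**Figure D1:**
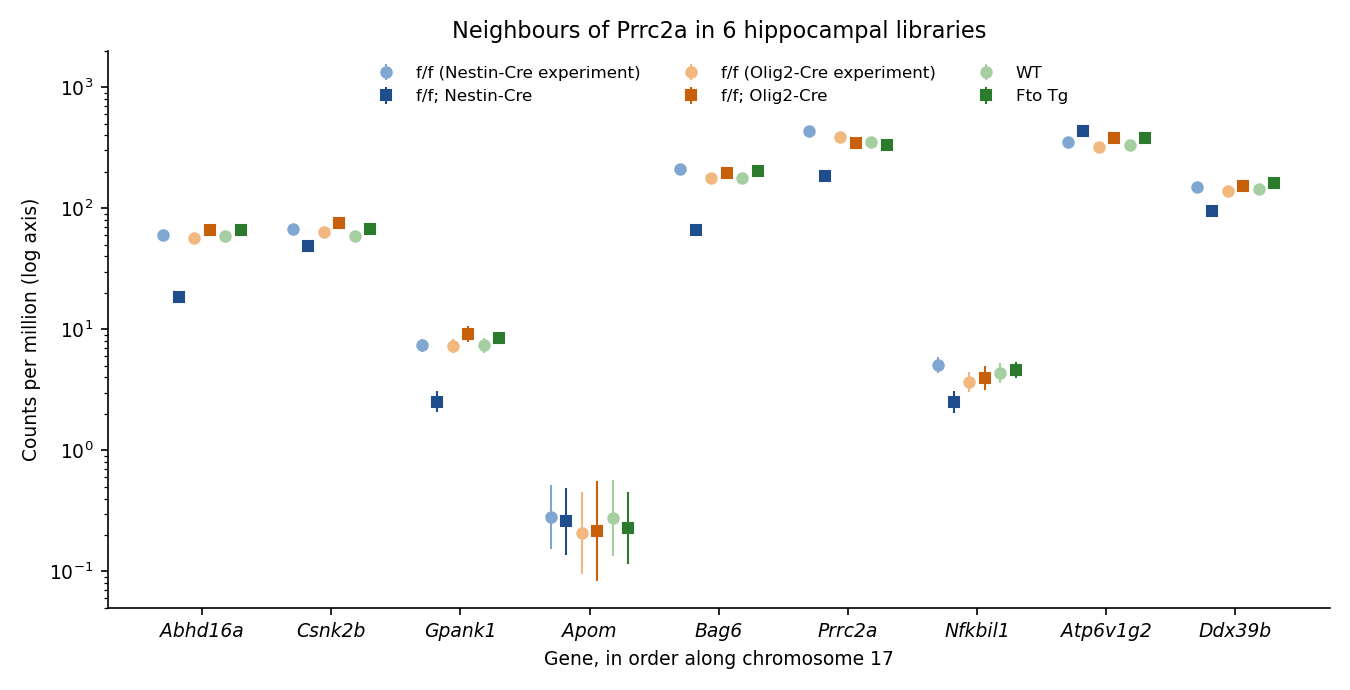
CPM (log axis) of 8 neighbours and Prrc2a in each of the 6 libraries, in the order of the genes along chromosome 17. Circles are control libraries, squares are libraries of altered genotype, and bars are Wilson 95% intervals for counting error. The dark blue squares (f/f with Nestin-Cre) are lowest for 6 neighbours and for Prrc2a, and highest for Atp6v1g2.

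In the Nestin-Cre pair, 6 of the 8 neighbours with enough counts were lower by a fold of at least 1.2 and 1 was higher. Over all 18170 genes tested, 66.8% were lower and 17.5% higher by that fold, so the neighbours' split was near that of the genome as a whole. The log2 ratio (Nestin-Cre over f/f) was -1.70 for Abhd16a (interval -1.83 to -1.57), -1.68 for Bag6 (-1.75 to -1.61) and -1.54 for Gpank1 (-1.91 to -1.19). It was -1.01 for Nfkbil1 (-1.41 to -0.64), -0.67 for Ddx39b (-0.73 to -0.61) and -0.46 for Csnk2b (-0.55 to -0.37). Atp6v1g2 was at 0.30 (0.26 to 0.33), and Apom at -0.11 with a wide interval (-1.60 to 1.33). Prrc2a, the deleted gene, was at -1.24 (-1.28 to -1.20), so 3 of its neighbours were further down than Prrc2a itself. The median was -0.84 over the 8 neighbours and -0.72 over all genes.

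The scale matters for this pair. Scaling by TMM factors (edgeR's trimmed mean of M values) in place of library totals moved the median of all genes up by 0.68 on the log2 scale. The split of the 8 neighbours was then 4 lower and 2 higher, beside 41.5% and 38.6% of all genes. Bag6, Abhd16a, Gpank1 and Nfkbil1 stayed lower on the TMM scale, with log2 ratios of -0.99, -1.01, -0.85 and -0.33, whereas Csnk2b was at 0.23 and Ddx39b at 0.01.

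In the Olig2-Cre pair none of the 8 neighbours was lower by the fold and 1 was higher, beside 21.4% and 17.9% of all 17742 genes tested. The gene that passed was Gpank1, with a log2 ratio of 0.32 and an interval of 0.02 to 0.61. The other ratios ran from 0.11 for Apom to 0.25 for Atp6v1g2, and that of Bag6 was 0.14 (0.08 to 0.20). The median was 0.18 over the neighbours and 0.00 over all genes. Prrc2a was at -0.17 (-0.21 to -0.13), which was within the fold and smaller than the 0.30 that it spanned over the 3 controls. All 8 neighbours thus had ratios above 0 where Prrc2a was below 0, but the intervals of Apom and Nfkbil1 included 0.

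In the Fto pair, which has no floxed allele, 1 neighbour was lower and none higher, beside 22.1% and 19.0% of all 18051 genes. The lower one was Apom, at -0.29 (-1.93 to 1.42) on 15 counts over both libraries. The 7 others ran from 0.08 for Nfkbil1 to 0.20 for Bag6, Csnk2b and Atp6v1g2, beside 0.13, 0.14, 0.24 and 0.25 for Nfkbil1, Bag6, Csnk2b and Atp6v1g2 in the Olig2-Cre pair, with which it shares no library. Prrc2a was at -0.07 (-0.11 to -0.03) here. The neighbour median was 0.18 and that of all genes -0.01.

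Control libraries set against each other gave the spread without Cre or transgene, in 3 pairs that share libraries. In the Olig2 f/f library 2 of 8 neighbours were lower than in the Nestin f/f library and 0 higher, beside 20.0% and 19.4% of all genes. In WT over the Nestin f/f library none passed the fold in either direction, beside 22.2% and 21.2%. In WT over the Olig2 f/f library 0 were lower and 1 was higher, beside 17.3% and 16.1%. Those that passed were Nfkbil1 and Apom, the 2 detected members with the fewest counts. For Bag6 the 3 controls spanned 0.23 on the log2 scale, for Csnk2b 0.20, for Abhd16a 0.07 and for Gpank1 0.01. The Nestin-Cre ratios of these genes were larger than that span in each case, as were the Olig2-Cre ratios of Csnk2b, Abhd16a and Gpank1, while the Olig2-Cre ratio of Bag6 was smaller. The Fto ratios of Abhd16a (0.17) and Gpank1 (0.19) were larger too, that of Csnk2b (0.20) equalled its span, and that of Bag6 (0.20) was smaller. For Gpank1 the span is below counting error and no measure of variation. Its interval in WT over the Nestin f/f library was -0.28 to 0.28. Prrc2a spanned 0.30 over the 3 controls. Its Nestin-Cre ratio (-1.24) was larger in size than that span, and its Olig2-Cre (-0.17) and Fto (-0.07) ratios were smaller.

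GC content differed widely among the neighbours, and in the Nestin-Cre pair the log2 ratio of all genes went down with it. In the longest transcript it was 51.4% for Atp6v1g2, 53.3% for Csnk2b, 55.2% for Ddx39b, 58.2% for Abhd16a, 58.5% for Gpank1, 59.9% for Bag6, 60.6% for Prrc2a and 64.1% for Nfkbil1. The 3 neighbours with the least GC had the 3 highest ratios among those with at least 100 counts, and Nfkbil1, with the most, was the exception at the other end. Each gene was then set beside every gene of the pair that had 100 counts or more and whose GC content was within 1 percentage point of its own.

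Bag6, at -1.68, stood at the median of its band, which was -1.67 over 554 genes. Gpank1, at -1.54, differed by -0.06 from a band median of -1.47 (800 genes), and Abhd16a, at -1.70, by -0.26 from a band median of -1.43 (874 genes). All 3 lay inside the interquartile range of their bands, with 39.1% to 49.8% of the band's genes lower than the gene itself. Over 5 definitions of the band (this one, a window of 2 points, GC content of all exons, a minimum of 1000 counts, and bands of GC content and exon length) the difference ran from -0.36 to 0.00 for Bag6, from -0.22 to 0.22 for Gpank1 and from -0.48 to -0.23 for Abhd16a.

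The other 4 neighbours were above their band. Csnk2b was 0.56 above a median of -1.02, and Ddx39b 0.45 above a median of -1.12, both inside the interquartile range. Nfkbil1 was 0.97 above a median of -1.99, in a band of 80 genes, and Atp6v1g2 was 1.09 above a median of -0.80. These 2 lay between the 75th and 90th percentiles, and no neighbour lay outside the 10th to 90th percentiles. Across the 7 neighbours, 5 were inside the interquartile range, 3 were below and 4 above the band median, and the median difference was 0.45. Prrc2a was 0.49 above its band median of -1.73, with 68.9% of 447 genes lower, so the deleted gene too was inside that range. In bands of GC content and exon length the difference was 0.18. Counts are summed over all exons of Prrc2a and all cells of the tissue, so this place does not measure how far the gene was deleted. By protein staining in younger mice, the study reports a significant loss of Prrc2a with Nestin-Cre.

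A fit of the log2 ratio on GC content and exon length over all genes left the same 3 members lowest. After it, none of the 8 neighbours was lower by a fold of 1.2 and 5 were higher, beside 38.7% and 38.8% of all genes. Bag6 was at -0.22, Abhd16a at -0.25 and Gpank1 at 0.09, whereas Csnk2b was at 0.70, Ddx39b at 0.48, Nfkbil1 at 1.32, Atp6v1g2 at 1.24 and Apom, on 19 counts, at 1.29. Prrc2a was at 0.23. Its direction in this pair, as that of Csnk2b, Ddx39b, Gpank1, Nfkbil1 and Apom, was thus opposite with and without the adjustment.

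In the Olig2-Cre pair the band medians were 0.02 to 0.16 at the neighbours' GC content. Over all genes the median rose with GC content, from -0.17 at 36 to 38% to 0.23 at 64 to 66%. After adjustment for GC content and length the median of the 8 neighbours was 0.10 in place of 0.18. In the bands 6 of 7 neighbours were above their median by 0.03 to 0.23, Nfkbil1 differed from its own by -0.03, and 4 were inside the interquartile range. Prrc2a, at -0.17, was below its band by a difference of -0.28, with 10.6% of the band's genes lower. In the Fto pair 6 of 7 were above the band median, 6 were inside that range, and Prrc2a was below its band by a difference of -0.21, with 16.6% of genes lower. The median of all genes rose there from -0.18 to 0.29 over the same GC content. The adjusted median of the 8 neighbours was 0.02 in place of 0.18. In bands of GC content and exon length the difference of Prrc2a was smaller, -0.12 in the Olig2-Cre pair and -0.07 in the Fto pair.

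**Figure D2:**
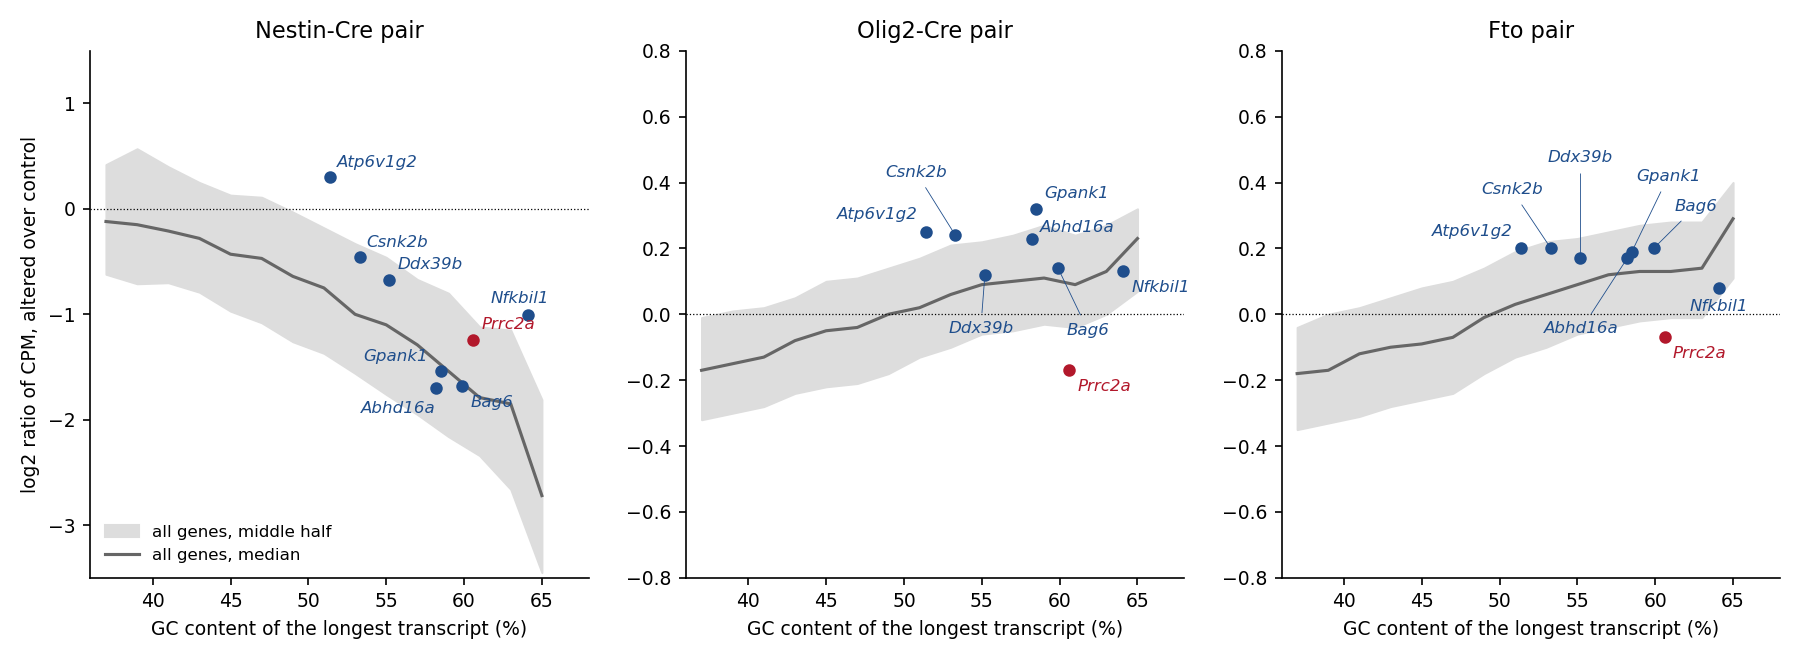
Log2 ratio of CPM (altered over control library) against GC content of the longest transcript (%) for the 7 neighbours with at least 100 counts (blue) and Prrc2a (red) in the 3 pairs; the y axis of the first panel covers a wider range. The line is the median and the grey band the interquartile range of all genes in bins of GC content. In the Nestin-Cre pair Bag6, Gpank1 and Abhd16a sit close to the line and Atp6v1g2 (1.09 above its band median) well over it, while Prrc2a lies below the band in the other 2 pairs.

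Ratios of 2 genes inside 1 library do not depend on how libraries are scaled. Both pairs of genes with neighbouring starts separated in the Nestin-Cre library. For each count of Gpank1 there were 9.15 counts of Csnk2b in the f/f library of that experiment, 8.65 in the other f/f library, 7.97 in WT, 8.22 in the Olig2-Cre library and 7.97 in Fto Tg, but 19.4 (15.7 to 24.3) in the Nestin-Cre library. The intervals of the 5 other libraries overlapped each other and not that of Nestin-Cre. For each count of Nfkbil1 there were 69.1, 88.4 and 75.8 counts of Atp6v1g2 in those controls, 96.5 in Olig2-Cre and 82.5 in Fto Tg, but 172 (139 to 215) in Nestin-Cre. In both pairs the gene with more GC was the one with the lower share in the Nestin-Cre library. Exons shared by the 2 genes of a pair are not counted for either, which holds in all 6 libraries alike.

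Prrc2a was set against each of the 7 neighbours in the same way. Counts of Prrc2a per count of Bag6 were 2.07, 2.18 and 1.97 in the controls, 2.81 (2.67 to 2.94) in Nestin-Cre, 1.76 (1.69 to 1.83) in Olig2-Cre and 1.64 (1.59 to 1.69) in Fto Tg. The Nestin-Cre library was above all controls, whereas Olig2-Cre and Fto Tg were below them. In the Nestin-Cre library Prrc2a was likewise above all controls beside Gpank1 (72.6 against 47.6 to 58.7, with an interval of 58.8 to 90.7 that overlaps the 52.0 to 66.6 of Nestin f/f and the 46.3 to 61.0 of Olig2 f/f) and Abhd16a (9.97 against 5.97 to 7.26). It was below all controls beside Csnk2b, Nfkbil1, Atp6v1g2 and Ddx39b, although beside Nfkbil1 its interval (73.4, 59.5 to 91.8) overlapped those of the controls (66.7 to 98.0 in WT). Per count of Ddx39b it was 1.96 against 2.44 to 2.90, and per count of Atp6v1g2 0.427 against 1.06 to 1.24.

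In the Olig2-Cre library all 7 ratios of Prrc2a to a neighbour were lower than in the f/f library of that experiment, by log2 differences of -0.49 to -0.29, and 6 of 7 were below all 3 controls, Nfkbil1 being the exception. The same held in the Fto Tg library, where all 7 were lower than in WT by log2 differences of -0.27 to -0.15 and all 7 were below the controls. Beside its neighbours, then, Prrc2a had a lower share in Olig2-Cre and in Fto Tg, of which only the first carries a deletion by its label. The 7 ratios share Prrc2a as numerator and are not independent of each other.

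**Figure D3:**
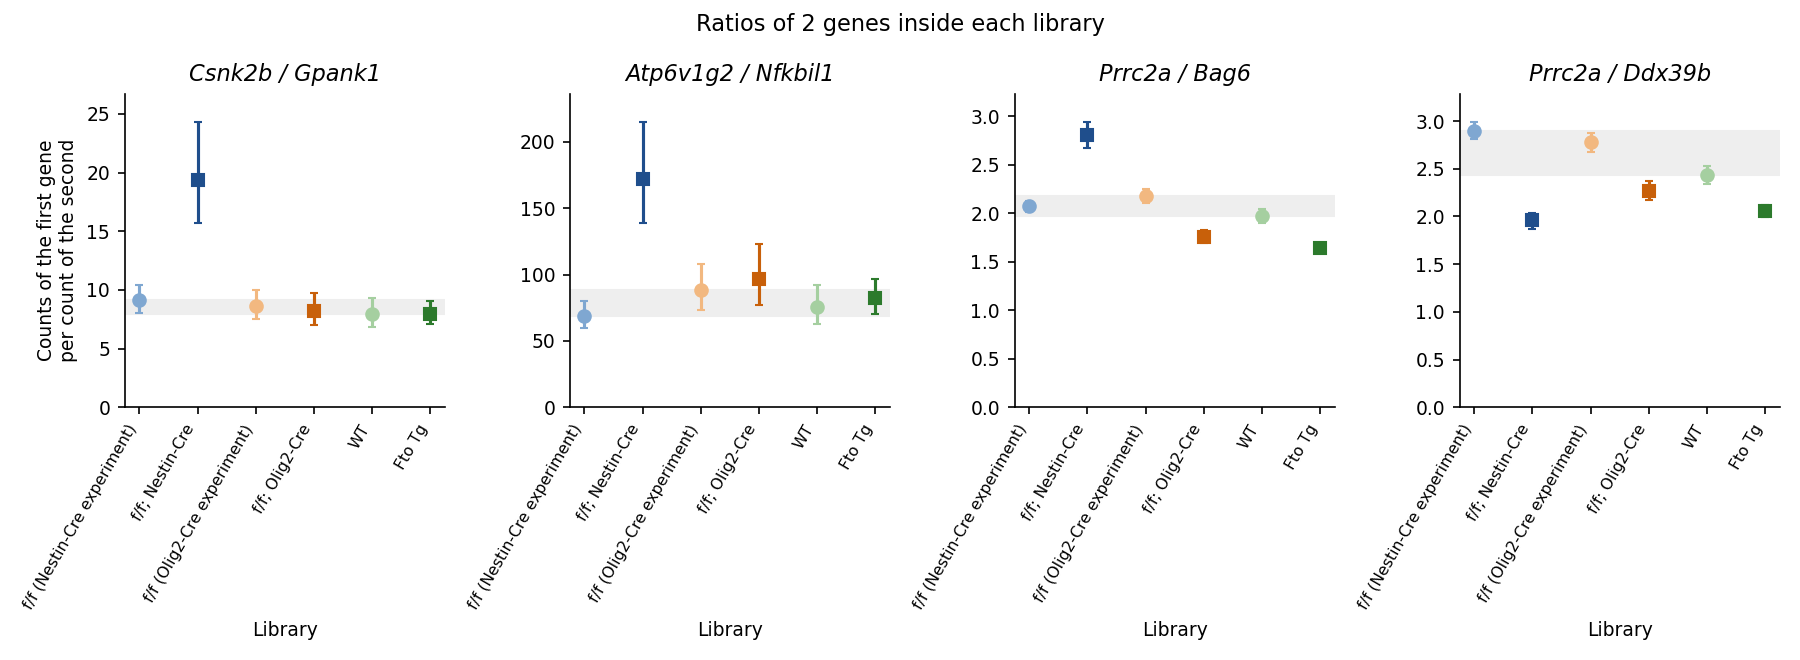
Counts of 1 gene per count of another inside each library, with 95% intervals for counting error; circles are controls, squares altered genotypes, and the grey band spans the 3 controls. Csnk2b per Gpank1 and Atp6v1g2 per Nfkbil1 are highest in the Nestin-Cre library (19.4 and 172), and Prrc2a per Bag6 is above the controls there but below them in Olig2-Cre and Fto Tg.

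The annotated interval held 28 genes, of which 22 were protein coding. At least 10 counts in every control library were present for 13 of them, namely Prrc2a, 7 members and 5 others (Ly6g6e, D17H6S53E, Gm17705, Aif1 and Lst1). D17H6S53E, between Gpank1 and Apom, had a Nestin-Cre log2 ratio of -1.98 (-2.27 to -1.71) against a GC band median of -1.09, and so stood further below its band than any member. Ly6g6e, beside Ly6g6c, was at -1.58 (-2.36 to -0.89) against a band median of -1.09. Lst1, a gene of the myeloid lineage, was at -3.02 (-4.07 to -2.21), but it already spanned 0.714 to 2.90 CPM over the controls. Aif1, a microglial gene in cells that Nestin-Cre does not target, was at -0.81 (-1.17 to -0.47), at its band median of -0.80. The summed microglia markers were also lowest in that library, as given above, and their part in these 2 ratios was not tested. Gm17705, a long noncoding RNA that starts beside Prrc2a on the other strand, was at 0.75 (0.16 to 1.36) in the Nestin-Cre pair and at -0.90 (-2.08 to 0.08) in the Olig2-Cre pair, on 0.591 to 1.90 CPM over the 6 libraries.

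The order of the ratios was not that of distance from Prrc2a. On the Bag6 side the Nestin-Cre ratio was -1.68 for Bag6, -1.54 for Gpank1, -0.46 for Csnk2b and -1.70 for Abhd16a, although Abhd16a is the most distant of them. Within 100 kb of Prrc2a the 5 other genes with at least 100 counts (Ddah2, D17H6S53E, Gm17705, Aif1 and Lst1) had a median ratio of -1.98, with 4 lower by the fold and 1 higher, and a median of -0.71 after adjustment for GC content and length. Further out, over genes with the same minimum, the median ratio was -1.0 at 100 kb to 1 Mb from Prrc2a (53 genes), -1.0 at 1 to 5 Mb (78 genes), -0.91 over the rest of chromosome 17 (483 genes) and -0.70 on other chromosomes (13126 genes). After that adjustment these medians were 0.41, -0.17, -0.08 and -0.05. Median GC content was 52.8% within 100 kb, 55.6% at 100 kb to 1 Mb and 49.5% on other chromosomes.

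**Figure D4:**
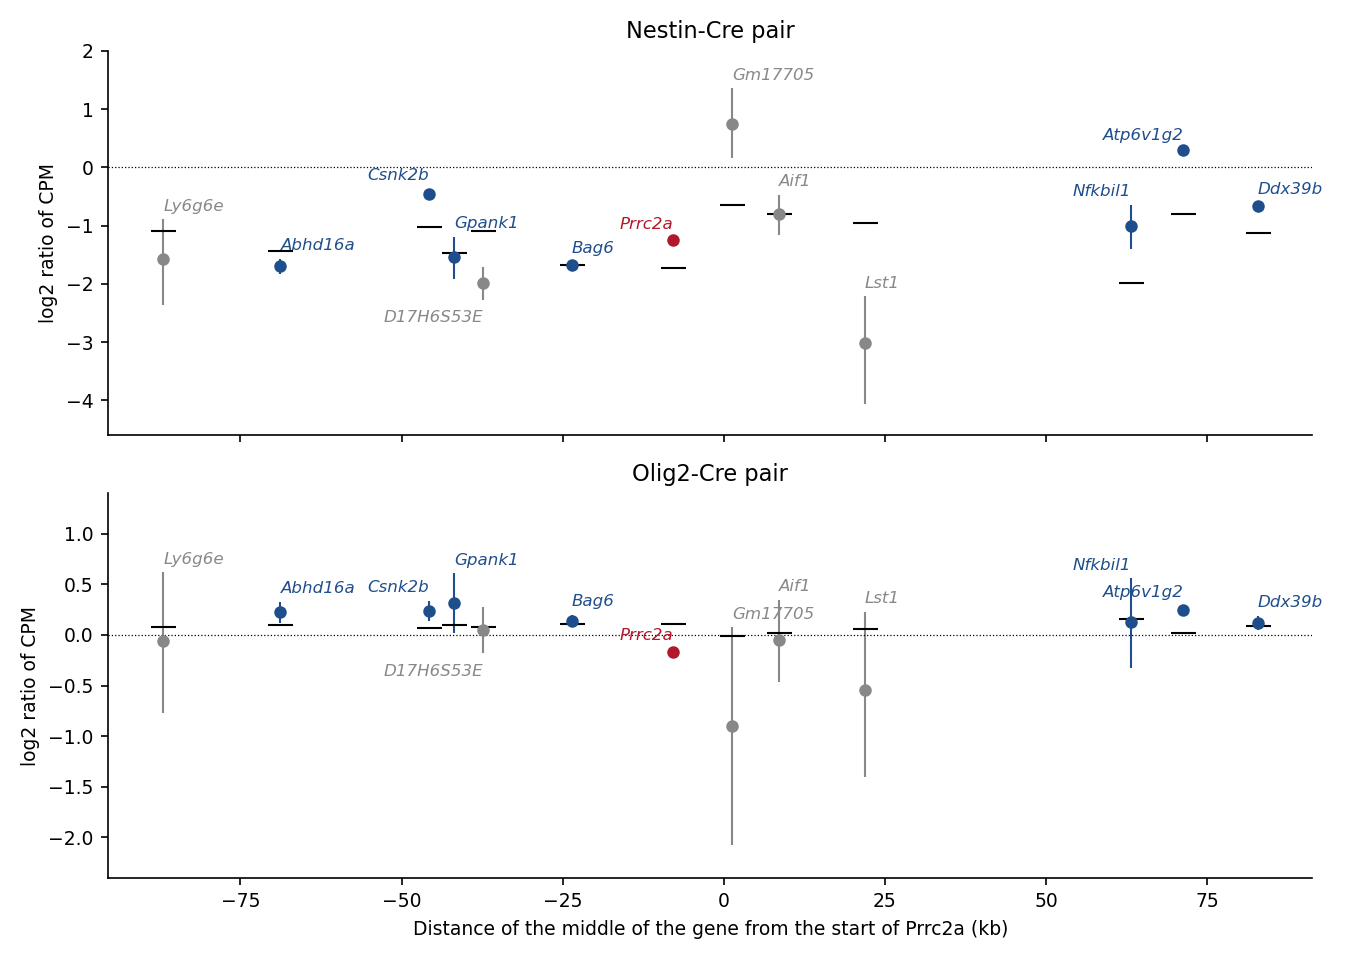
Log2 ratio of CPM for the 13 interval genes with at least 10 counts in every control, by distance (kb) of the middle of the gene from the start of Prrc2a, in the Nestin-Cre and Olig2-Cre pairs. Blue points are members, red is Prrc2a, grey are other genes, bars are 95% intervals for counting error, and short black lines are the median of genes of the same GC content. Members on the left scatter around their black line in the Nestin-Cre pair, and those on the right (Nfkbil1, Atp6v1g2, Ddx39b) lie above it.

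Partner genes of the members, which lie elsewhere in the genome, were read as a comparison for function in place of position. Of 26 listed genes 25 were matched. In the Nestin-Cre pair 20 were lower by the fold and 2 higher, beside the 66.8% and 17.5% of all genes. The Olig2-Cre pair had 0 lower and 2 higher, beside 21.4% and 17.9% of all genes. The Fto pair had 0 lower and 6 higher, beside 22.1% and 19.0%. The partners of Bag6 did not move with it as a group. Get4, which with Ubl4a and Bag6 forms the pre-targeting complex, was at -2.61 in the Nestin-Cre pair, and Sgta, which passes clients to that complex, at -1.62. Ubl4a was at 0.22 and Asna1, the targeting ATPase, at -0.24. After adjustment for GC content and length Get4 was at -1.22, Sgta at -0.05, Ubl4a at 1.02 and Asna1 at 1.19, beside -0.22 for Bag6. Of the other V1 subunits of the proton pump 7 of 8 were lower in the Nestin-Cre pair, beside 66.8% of all genes. Atp6v1b2 was at -1.90, Atp6v1a at -1.02 and Atp6v1g1, the widely expressed G subunit, at -1.73, while Atp6v1d was at 0.57. Atp6v1g2 itself, at 0.30, was thus apart from most subunits of its own complex. After adjustment it was at 1.24, beside a median of -0.81 over those 8 subunits. Csnk2a1, the main catalytic subunit paired with Csnk2b, was at -1.18 and Csnk2a2 at -0.26. With adjustment these were -0.89 and 0.17, beside 0.70 for Csnk2b. Of 10 matched genes of mRNA export with Ddx39b, 8 were lower, beside 66.8% of all genes, and 1, Thoc2, was higher at 1.43. Their adjusted median was -0.08, beside 0.48 for Ddx39b. Abhd12, which degrades the lipid that Abhd16a makes, was at -1.51 beside -1.70 for Abhd16a, and at 0.27 beside 0.23 in the Olig2-Cre pair. Adjusted for GC content and length, these were -0.30 beside -0.25, and 0.15 beside 0.10.

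Profiles over the 6 libraries placed each member beside genes from other parts of the genome. Likeness was measured as the root mean square difference of centred log2 CPM, among 10015 genes with a mean of at least 10 CPM. The closest to Bag6 were Arfgap1 (0.021), Dus3l (0.029) and Mri1 (0.034), and the closest to Abhd16a were Pfkm (0.027), Aarsd1 (0.029) and Rfc2 (0.034). Among members, Bag6 and Abhd16a were the closest pair at 0.10, which ranked Abhd16a 277th for Bag6. Csnk2b was closest to Dbn1 (0.026), Ddx39b to Gpat4 (0.024) and Atp6v1g2 to Chmp2a (0.035), and Prrc2a ranked 2725th for Bag6 at 0.25. Of the 15 closest genes none lay in the interval. Only a few of the 10015 genes do, so this count cannot tell whether position matters.

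The one contrast of the deletion with more than 1 library an arm set both Cre libraries against both f/f libraries. In edgeR's quasi-likelihood test none of the 7 members tested and none of the 16921 genes tested passed a false discovery rate of 0.05 (percent called 0), and 143 genes but 0 members had an unadjusted p under that value. Member log2 fold changes ran from -0.36 for Bag6 (standard error 0.42) to 0.68 for Atp6v1g2 (0.43), with Benjamini-Hochberg adjusted p of 0.955 to 0.967. Bag6 averaged 194 ± 21.7 CPM in the f/f libraries and 131 ± 93.1 in the Cre libraries (SD, n = 2 each), the latter being 65.5 in Nestin-Cre and 197 in Olig2-Cre. DESeq2 called 3 genes and no member. Without the Olig2-Cre library 8480 of 17747 genes (47.8%) and 4 of 7 members were called, a share near that of all genes. The members were Bag6, Gpank1 and Abhd16a, lower, and Atp6v1g2, higher, with edgeR adjusted p of 0.00261, 0.0311, 0.00148 and 3.31e-04. The lone Nestin-Cre library was then taken to vary as the f/f libraries do. Without the Nestin-Cre library 2 genes and no member were called.

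The f/f libraries were also set against the libraries labelled without the floxed allele (WT and Fto Tg), which asks whether the neighbours differ where the allele is present but not recombined. That arm mixes WT with Fto Tg, an altered genotype, so the contrast does not isolate the allele. None of the 7 members was called, beside 20 of 17007 genes (0.118%). Their log2 fold changes ran from -0.11 (Gpank1 and Abhd16a, standard errors 0.19 and 0.13) to 0.05 for Csnk2b (0.13), with edgeR adjusted p of 0.845 to 0.982, and none was among the 1403 genes with an unadjusted p under 0.05. Prrc2a was at 0.26 (0.13), with an adjusted p of 0.626. Allele and experiment cannot be told apart in this contrast, and 618 genes were called without the Olig2 f/f library, 142 without the Nestin f/f library and 51 without WT, with 0 members among them.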

How the data were processed

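The 6 groups with 1 RNA-seq library each were read as deposited whole-number counts per Ensembl gene, which the authors made by trimming, aligning to mm10 with TopHat2 (version 2.0.9 in the submitters' processing notes) and counting uniquely mapped reads with HTSeq 0.6 in union mode without strand. Symbols, coordinates, exon lengths and GC content came from GENCODE M21 on GRCm38, which covered 95.0% of identifiers. Controls with a floxed genotype are given as f/f, although their titles say WT. The members and lists were chosen with earlier results of these data known.

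Total counts were 18616540 to 35482589. Log2 ratios of CPM used 0.5 added to each count, genes with at least 10 counts over a pair and a fold of 1.2 (0.26 on the log2 scale), the fold used by the study. Intervals were Wilson for CPM and exact binomial for ratios, and cover counting error only, since PCR copies are not independent. GC bands held genes within 1 percentage point and at least 100 counts. A spline on GC content and log exon length gave adjusted ratios. Contrasts of 2 against 2 libraries used edgeR 4.0.16 (glmQLFit, TMM, filterByExpr, Benjamini-Hochberg at 0.05) in R 4.3.3, with DESeq2 1.42.0 as an alternative. With no sign in the labels that libraries are separate mice, p-values measure the spread between libraries, which may be technical. Other steps used Python 3.11.15, numpy 2.4.6, pandas 2.3.3 and scipy 1.17.1. Statistical steps were tested on simulated data. For both Cre libraries against both f/f libraries the simulated spread was smaller than the real one, so the power of that contrast was not tested. Named genes were the 9 members and Prrc2a, interval genes with at least 10 counts in every control, listed partner genes, and the 3 genes most alike to each member. A partner, Zc3h11a, had no match, and Ddx39a was matched as Ddx39.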

Additional observations from a re-analysis of the deposited data

Results flagged for a closer look

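Bag6, Csnk2b, Gpank1, Abhd16a and Ddx39b had log2 ratios below 0 in the Nestin-Cre pair and above 0 in the Olig2-Cre pair, although both pairs set a Cre library against an f/f library. They are the members whose counting intervals lay on opposite sides of 0 in the 2 pairs. Nfkbil1 (-1.01 and 0.13) and Apom (-0.11 and 0.11) also had ratios of opposite sign, but their Olig2-Cre intervals included 0. The Nestin-Cre ratio minus the Olig2-Cre ratio was -1.82 for Bag6, -0.70 for Csnk2b, -1.86 for Gpank1, -1.92 for Abhd16a and -0.79 for Ddx39b. Each pair holds 1 library an arm, so this difference was not tested. With TMM scaling or DESeq2 size factors the Nestin-Cre ratios of Csnk2b and Ddx39b were no longer below 0. After adjustment for GC content and length those of Csnk2b (0.70), Ddx39b (0.48) and Gpank1 (0.09) were above 0, and those of Bag6 and Abhd16a were -0.22 and -0.25.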

How the results depend on the processing

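With TMM factors the Nestin-Cre pair had 4 members lower by the fold in place of 6 and 2 higher in place of 1. The shares of all genes were 41.5% and 38.6%. Csnk2b (0.23) and Ddx39b (0.01) turned to the other side of 0. DESeq2 size factors gave 4 lower and 2 higher, with Csnk2b at 0.26 and Ddx39b at 0.05. After adjustment for GC content and length 0 were lower and 5 higher, beside 38.7% and 38.8% of all genes. Csnk2b (0.70), Gpank1 (0.09), Nfkbil1 (1.32), Ddx39b (0.48) and Prrc2a (0.23) turned to the other side of 0. Apom, at -0.11, was at 0.57 with TMM factors, 0.60 with DESeq2 size factors, 1.29 after adjustment and 0.20 with totals without mitochondrial genes, which left 5 members lower. A fold of 1.5 left 0 higher, and the f/f library of the other experiment gave 2 higher. In the Olig2-Cre pair 3 members were higher with DESeq2 size factors and 0 after GC adjustment, at a fold of 1.5 or with the read test of the study (MARS) added, and 2 were lower against the other f/f library. In the Fto pair 0 members were lower with DESeq2 size factors, at a fold of 1.5 or with the read test, and 2 with no minimum count. Beside genes of the same GC content, 0 members were below the band median in the Olig2-Cre pair with the GC content of all exons, and 2 in the Fto pair with bands of GC content and length. In the Nestin-Cre pair that count was 2 or 3 under each band definition run. For the other settings of the fold the share of all genes was not computed. Those counts therefore cannot tell a change of the members from one of all genes.

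For both Cre libraries against both f/f libraries DESeq2 called 3 genes. Leaving out 1 library at a time gave 0 to 8480 genes and 0 to 4 members, both maxima without the Olig2-Cre library. With the experiment as a replicate block 2 genes and 0 members were called. The labels give no replicate numbers, and pairs follow from the experiment alone. For f/f against libraries without the floxed allele DESeq2 called 90 genes, edgeR without a filter 436, with GC and length offsets 11 and with the Cre libraries included 0, and leaving out 1 library gave 16 to 618, with 0 members throughout. The causes of these changes were not tested. A single library a group limits every ratio of a pair, and Apom and Ly6g6c were too low in counts for a difference to be detectable at this depth.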
